A study of Macaca fascicularis with 18 samples.

Results

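Cerebral cortex and kidney cortex of the same 2 cynomolgus monkeys (Macaca fascicularis) were compared gene by gene. The animals were adult females of about 10 years, called A1 and A2, and neither had received a treatment other than ketamine, midazolam and pentobarbital given at the end of life. Each tissue was sampled 3 times per animal, so that 12 of the 18 libraries of the series entered the comparison, 6 per tissue. Cerebral cortex is called cortex and kidney cortex is called kidney here, and a library is named by tissue, animal and sample number, such as kidney A2-3. The deposited values are RPKM, reads on a gene scaled to the length of the gene and to the reads of the library, so that levels of different genes can be compared per length. Genes were chosen by a single rule, at least 1 RPKM in at least 3 of these 12 libraries. The rule kept 14857 of the 29324 genes in the table (50.7%). Of the others, 7667 were at 0 in all 12 libraries. At the limit of the rule, 289 genes reached 1 RPKM in exactly 3 libraries and were kept, with a median level of 0.424 RPKM over the 12 libraries, and 305 genes reached it in exactly 2 and were left out, with a median level of 0.392 RPKM.

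Cerebral cortex is built from excitatory and inhibitory neurons, astrocytes, oligodendrocytes, microglia and vessels, and its transcriptome is known for genes of synapses, ion channels, axons and myelin. Kidney cortex holds glomeruli, which filter the blood, and the tubules that follow them, most of all proximal tubules. Proximal tubules take filtered sugar, amino acids, phosphate and proteins back into the body and share many enzymes and transporters with liver. The genes are listed by Ensembl identifiers, and 0 of the 29324 identifiers matched an entry of the gene table at hand. The labels of both tissues could therefore not be checked against markers of neurons, glia or tubules, and the genes below are described by their levels and by the tissues that hold them. In whole tissue, fewer cells of a type and less RNA per cell cannot be told apart.

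The depth of the libraries was compared from the steps of the low values, with the median of the 12 libraries set to 1. It was 0.380 in cortex A2-2 and 0.381 in kidney A2-2 and lay between 0.846 and 1.197 in the other 10 libraries. Part of the counts and the differences of the genes with the largest differences are also given without these 2 libraries, and 6703 genes were called between the tissues without them. The 3 libraries of a tissue and animal are repeated samples of that animal. Differences between the tissues were tested on the 4 means per animal and tissue, with 2 animals as the independent units.

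Of the 14857 genes, 6719 differed between the tissues (45.2%), with an adjusted p below 0.05 in limma's moderated test and at least a 2-fold difference on the log2(RPKM + 1) scale. Of these, 3351 were higher in kidney (22.6%) and 3368 were higher in cortex (22.7%). The numbers in the 2 directions were close to each other, and which was larger changed with the settings. A pseudocount of 0.1 gave 3866 genes higher in kidney and 3802 in cortex. With median-of-ratios factors, 3131 genes were higher in kidney and 3548 in cortex, while quantile normalization gave 3509 and 3234. Another 3475 genes had an adjusted p below 0.05 with less than a 2-fold difference. The median absolute log2 difference over all genes was 0.89, with a median standard error of 0.17. This and the standard errors of single genes below use limma's moderated variance, which draws on all genes tested. They are not the plain spread between the 2 animals. All 6 kidney libraries lay above all 6 cortex libraries for 5278 genes, and all 6 cortex libraries lay above all 6 kidney libraries for 4972 genes. These 10250 genes are 69.0% of the genes tested, against 45.2% called, and without the 2 libraries of low depth their number was 10801. Of the 6719 called genes, 6662 had no overlap between the 6 libraries of one tissue and the 6 of the other.

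Large differences were more numerous among the genes of cortex. At least a 4-fold difference was found for 1788 genes higher in cortex and 1448 higher in kidney, and at least a 16-fold difference for 588 genes higher in cortex and 359 higher in kidney. With median-of-ratios factors, 617 and 342 genes passed 16-fold, and with quantile normalization 567 and 361, so that this excess in cortex was present under each scaling. At the far end the order changed. At least a 128-fold difference was reached by 60 genes in kidney and 51 in cortex, and at least a 256-fold difference by 28 and 11. This last order depends on the pseudocount, since with 0.1 in place of 1 a 128-fold difference was reached by 173 genes in kidney and 321 in cortex.

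**Figure D1:**
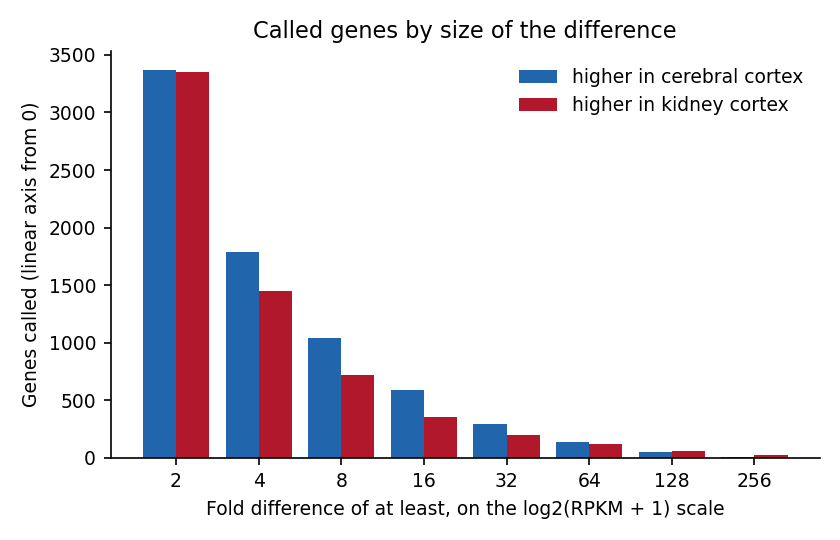
Number of genes called (vertical axis) by the fold difference they reach at least (horizontal axis, on the log2(RPKM + 1) scale). Each bar counts all called genes at or past that fold, and the bars of cortex (blue) are higher than those of kidney (red) at 4-fold to 64-fold and lower at 128-fold and 256-fold.

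The 2 genes with the largest difference in each direction had mean levels of more than 1000 RPKM in one tissue and of 0.326 to 5.01 RPKM in the other. ENSMFAG00000045632 had the largest difference over all 12 libraries, while without cortex A2-2 the second gene named here, ENSMFAG00000031432, was ahead of it. The kidney levels of ENSMFAG00000045632 were 2427, 3153 and 1451 RPKM in the 3 libraries of A1 and 2482, 4132 and 2358 RPKM in those of A2. In cortex it was at 0.014, 0 and 0 RPKM in A1 and at 0, 0.445 and 1.499 RPKM in A2. The tissues did not overlap, and the values above 0.1 RPKM in cortex were those of A2-2 and A2-3. The difference on the log2(RPKM + 1) scale was 10.999 ± 0.248 (standard error, n = 2 animals, adjusted p = 1.01e-05 in limma) and 10.85 without the 2 libraries of low depth. Its size depends on the pseudocount, and 0.1 in place of 1 gave 13.53. This gene was at 0 in all 6 liver libraries.

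ENSMFAG00000031432 was at 3652, 4010 and 3785 RPKM in the kidney of A1 and at 5359, 5472 and 5413 RPKM in the kidney of A2. All 3 values of A2 were above all 3 of A1. In cortex its levels were 0.081, 1.30 and 1.37 RPKM in A1 and 0.082, 22.7 and 4.55 RPKM in A2, so that cortex A2-2 was the highest of the tissue. The log2 difference was 10.53 ± 0.51 (standard error, n = 2 animals, adjusted p = 4.98e-05 in limma) and 11.07 without the 2 libraries of low depth. A pseudocount of 0.1 gave 11.67. Unlike the first gene it was also high in liver, with 3799 to 4369 RPKM in 5 liver libraries, and it was at 3.17 RPKM in liver A2-1. Liver A2-1 stands apart from the other liver libraries, since 784 of the genes tested (5.28%) were at least 8-fold higher in it than in every other liver library. This fold was taken on RPKM without a minimum level in liver A2-1, so that genes at very low levels are counted too.

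Among the genes higher in cortex, ENSMFAG00000001652 was at 2770, 2889 and 2883 RPKM in the cortex of A1 and at 2057, 2394 and 2282 RPKM in the cortex of A2. Its kidney levels lay between 1.81 and 3.35 RPKM in all 6 libraries, with a median of 2.27 RPKM. It was lower in kidney by 9.52 on the log2 scale, a difference of -9.52 ± 0.15 (standard error, n = 2 animals, adjusted p = 1e-05 in limma). ENSMFAG00000042391 was at 950.0, 1099 and 961 RPKM in the cortex of A1 and at 1050.0, 1209 and 1099 RPKM in that of A2. In kidney it had 0.203, 0.269 and 0.249 RPKM in A1 and 0.537, 0.797 and 1.01 RPKM in A2, and the log2 difference was -9.48 ± 0.20 (standard error, n = 2 animals, adjusted p = 1e-05 in limma). Without the 2 libraries of low depth the differences of these genes were -9.47 and -9.46. With a pseudocount of 0.1 they were -9.97 and -10.94, so that the order of the 2 genes changed. Both genes were low in liver too, at 2.70 to 3.31 RPKM and at 3.37 to 6.55 RPKM in the 5 libraries without liver A2-1.

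**Figure D2:**
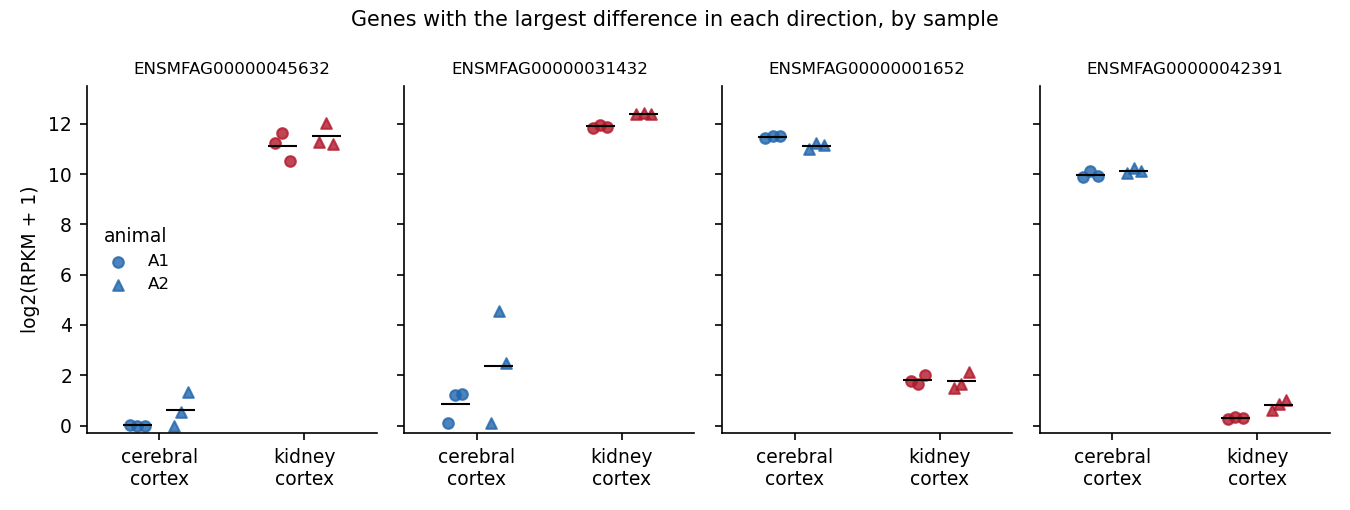
Levels of the 2 genes with the largest difference in each direction, 4 genes in all, as log2(RPKM + 1), in cortex (blue) and kidney (red) of A1 (circles) and A2 (triangles). Each point is 1 library and each line the mean of 3, and in all 4 genes the 6 libraries of one tissue lie far from the 6 of the other.

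Low values of genes of the other tissue were most frequent in cortex A2-3 and kidney A2-3. For this description, genes were taken that had at least 100 RPKM in all 6 libraries of one tissue and at most 0.05 RPKM in the 3 A1 libraries of the other, a choice made after the values had been seen. It gave 17 genes high in kidney and 17 high in cortex. In cortex A2-3, all 17 kidney genes were above 0, at a median of 0.0647% of their mean level in kidney, with a range of 0.0369% to 0.177% and the middle 50% of the genes between 0.0621% and 0.0738%. In cortex A2-1, 5 of the 17 were above 0 and the median was 0. In kidney A2-3, 16 of the 17 cortex genes were above 0, at a median of 0.0665% of their mean level in cortex (range 0 to 0.324%, middle 50% from 0.0508% to 0.072%). In kidney A2-1, 8 of the 17 were above 0 and the median was 0. The libraries A2-2 stood lower, with medians of 0.0113% in cortex and 0.0206% in kidney and with single genes up to 0.463% and 0.103%. The medians of the 2 libraries A2-3 were thus close to each other. In the libraries A2-2, 11 of the 17 genes in cortex and 10 of the 17 in kidney were above 0. The middle 50% ran from 0 to 0.0271% in cortex A2-2 and from 0 to 0.0283% in kidney A2-2, so that these libraries were similar too apart from their medians and highest values. The source of these low values was not tested. Without cortex A2-3 and kidney A2-3, the log2 difference of ENSMFAG00000045632 was 11.25 and 6704 genes were called.

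**Figure D3:**
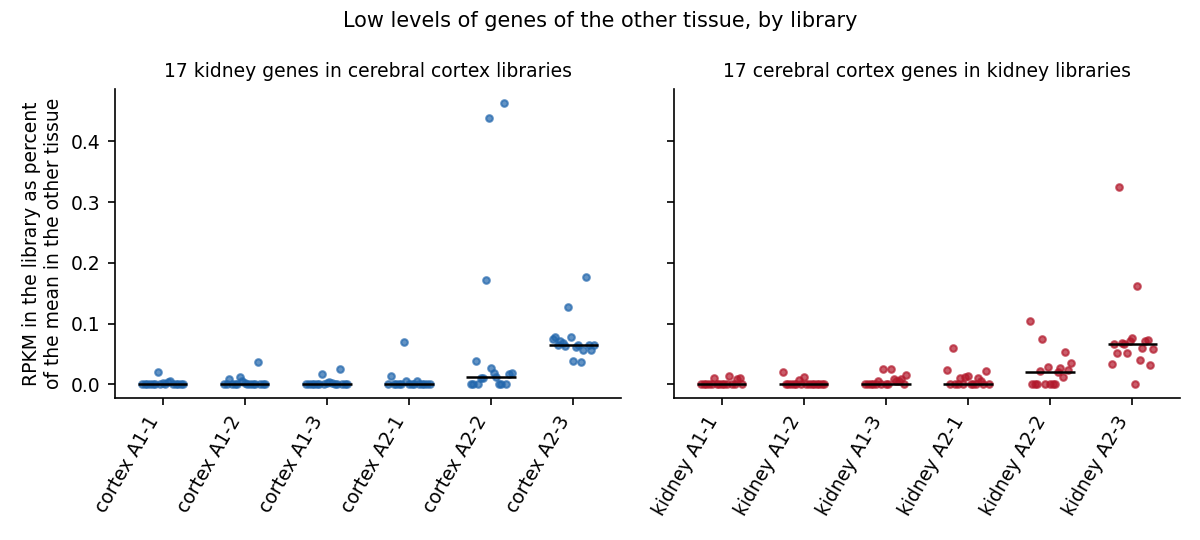
RPKM of each library as a percentage of the mean RPKM in the other tissue (vertical axis), for 17 kidney genes in the cortex libraries (left) and 17 cortex genes in the kidney libraries (right). Each point is 1 gene and each line the median, which is 0.0647% in cortex A2-3, 0.0665% in kidney A2-3 and 0 in the A1 libraries that were used to choose the genes.

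The genes in use were largely shared. Of the genes kept, 10473 (70.5%) had at least 1 RPKM in all 12 libraries. Cortex libraries held 13140 ± 82.1 genes and kidney libraries 12841 ± 103 genes at 1 RPKM or more (mean ± SD, n = 6 libraries of 2 animals). Every cortex library, from 13054 to 13246 genes, lay above every kidney library, from 12766 to 13020 genes. On the 4 means per animal, 13125 and 13155 genes in cortex stood against 12899 and 12783 in kidney (exact permutation test, two-sided, p = 0.333, the smallest p that 2 animals against 2 allow). At 5 and at 10 RPKM the ranges of the tissues overlapped, with 9131 to 9452 genes in cortex and 9096 to 9379 in kidney at 5 RPKM and 6653 to 6955 and 6588 to 6842 at 10 RPKM. Genes at high levels had the opposite order. At 100 RPKM or more there were 682 to 740 genes in cortex and 767 to 870 in kidney, and at 1000 RPKM or more 24 to 30 in cortex and 38 to 47 in kidney, and neither pair of ranges overlapped. The summed RPKM of a library was also higher in kidney, at 541362 to 581355 against 441288 to 466206 in cortex. The counts at 100 and 1000 RPKM were not repeated under another scaling, and whether their order follows from these sums was not tested.

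The highest genes took a larger part of each kidney library than of each cortex library. The 10 highest genes took 14.3% ± 1.13 of the summed RPKM in cortex and 21.1% ± 1.99 in kidney (mean ± SD, n = 6 libraries of 2 animals), and the ranges of 13.1% to 15.95% and 18.8% to 23.6% did not overlap. The means per animal were 13.8% and 14.8% in cortex and 21.3% and 20.9% in kidney (exact permutation test, two-sided, p = 0.333, again the smallest possible). At the very top both tissues listed nearly the same genes. Of the 10 genes with the highest mean, 9 were shared, of the 100 highest 39, and of the 1000 highest 440. In all 12 libraries the highest value belonged to ENSMFAG00000020465, with 18102 to 26566 RPKM in cortex and 21084 to 34495 RPKM in kidney, ranges that overlap. Its log2 difference was 0.54 ± 0.27 (standard error, n = 2 animals, adjusted p = 0.133 in limma). Below this shared top the lists parted. Of the 100 highest genes of kidney 69 were called higher in kidney and 2 higher in cortex, and of the 100 highest genes of cortex 54 were called higher in cortex and 12 higher in kidney. These counts describe lists chosen by level in the same libraries.

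Genes of high level were called more often, which is given as a description with no test between the classes. Of the 742 genes with a mean of at least 100 RPKM over the 12 libraries, 60.8% were called, against 45.2% of all genes tested. In this class 279 genes (37.6%) were higher in kidney and 172 (23.2%) higher in cortex. With quantile normalization the numbers were 228 and 197, and with median-of-ratios factors 255 and 181. In the classes from 1 to 5 RPKM and from 5 to 20 RPKM, 43.7% and 43.5% of genes were called, with 852 higher in kidney and 834 in cortex in the lower class and 1234 and 1248 in the upper. Under 1 RPKM, 28.9% of 778 genes were called, and the difference of such genes is understated on this scale.

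**Figure D4:**
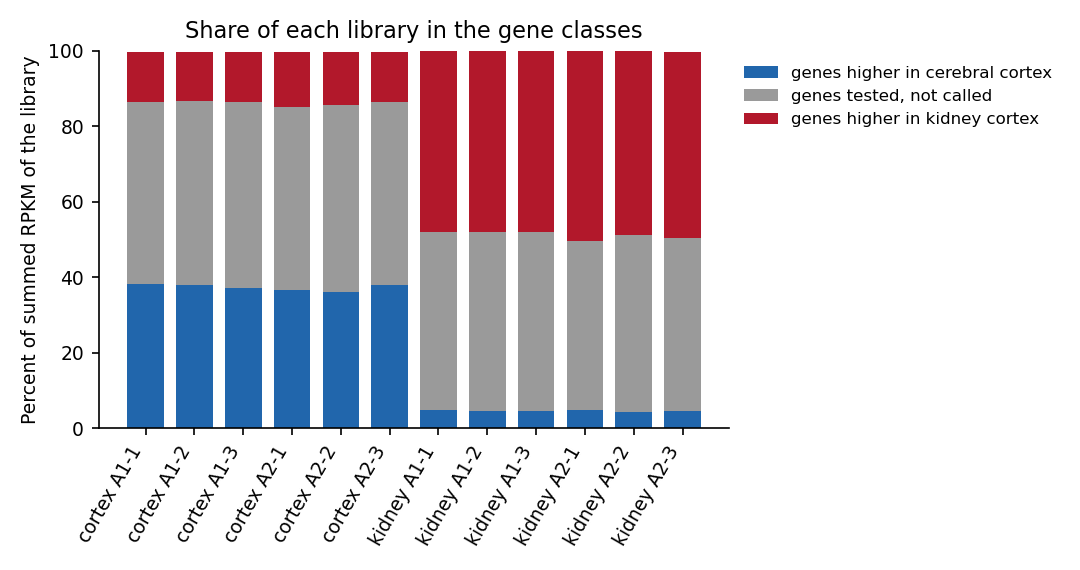
Percentage of the summed RPKM of each library (vertical axis) that lies in genes called higher in cortex (blue), genes tested and not called (grey) and genes called higher in kidney (red). The genes higher in kidney took 47.7% to 50.2% of the kidney libraries and 13.2% to 14.8% of the cortex libraries, and the genes higher in cortex 36.2% to 38.2% of the cortex libraries and 4.36% to 4.80% of the kidney libraries.

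The called genes were also described by their part of the summed RPKM. Genes higher in kidney took 48.6% ± 1.03 of the summed RPKM in kidney and 13.7% ± 0.614 in cortex (mean ± SD, n = 6 libraries). Genes higher in cortex took 37.4% ± 0.815 in cortex and 4.61% ± 0.155 in kidney. The 8138 genes that were not called took 48.7% ± 0.527 in cortex and 46.6% ± 1.08 in kidney. These shares follow from the choice of the genes and are a description. At the other end, 1959 genes (13.2%) were within 0.32 on the log2 scale in both animals, and 49 of these had a mean of at least 100 RPKM.

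Genes found in only 1 of these 2 tissues were more numerous in cortex. At least 1 RPKM in all 6 cortex libraries and under 1 RPKM in all 6 kidney libraries was found for 1215 genes, and the reverse for 850 genes. Without the libraries of low depth the numbers were 1266 and 921, with median-of-ratios factors 1248 and 814, and at limits of 5 and 0.5 RPKM 501 and 227. The genes found in cortex and not in kidney had a median level of 9.07 RPKM in cortex and 0.136 RPKM in kidney, and 570 of them reached a mean of 10 RPKM and 61 a mean of 100 RPKM. The genes found in kidney and not in cortex had a median level of 5.66 RPKM in kidney and 0.224 RPKM in cortex, and 312 reached 10 RPKM and 58 reached 100 RPKM. The highest mean was 1548 RPKM among the genes of kidney and 594 RPKM among those of cortex. At 0 in all 6 libraries of the other tissue were 88 of the 1215 genes (7.24%) and 15 of the 850 (1.76%), and without the library of low depth 97 and 16 of them.

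Liver, which was not used to choose the genes, placed the groups differently. Of the 3368 genes higher in cortex, 1143 (33.9%) had at least 1 RPKM in all 5 liver libraries other than liver A2-1, and 1827 (54.2%) were under 1 RPKM in all 5. Of all genes tested, 64.2% and 25.5% were so, and of the genes that were not called 72.8% and 16.5%. Of the 3351 genes higher in kidney, 2467 (73.6%) were at 1 RPKM or more in all 5, and 611 (18.2%) were under 1 RPKM in all 5, shares close to those of the genes that were not called. With liver A2-1 included, 30.8% of the genes higher in cortex and 67.1% of the genes higher in kidney had at least 1 RPKM in every liver library, and 70.8% of the genes that were not called. The genes found in only 1 of the 2 tissues had lower shares in liver in both directions. Of the 1215 genes of cortex, 44 (3.62%) had at least 1 RPKM in all 5 liver libraries and 1109 (91.3%) were under 1 RPKM in all 5. Of the 850 genes of kidney, 319 (37.5%) had at least 1 RPKM in all 5 and 400 (47.1%) were under 1 RPKM in all 5. With liver A2-1 the shares at 1 RPKM or more in all 6 were 0.658% and 21.4%.

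The share of genes found in liver was lower for larger differences, above all among the genes of cortex. Of genes 2-fold to 4-fold higher in cortex, 47.6% had at least 1 RPKM in all 5 liver libraries, of genes 8-fold to 16-fold higher 20.1%, and of the 588 genes at least 16-fold higher 9.52%. Among genes higher in kidney the same classes gave 75.8%, 67.8% and, for the 359 genes at least 16-fold higher, 64.9%. The mean liver level lay nearer to the kidney level than to the cortex level for 1279 of the 3351 genes higher in kidney (38.2%). It lay nearer to the cortex level than to the kidney level for 126 of the 3368 genes higher in cortex (3.74%). These shares depend on the scale, since the median log2 difference of liver against kidney over all genes was -0.91 in the deposited values and -0.04 with median-of-ratios factors. With those factors the shares were 67.4% and 8.79%. In both scales the share was larger for the genes of kidney. Liver lay below both tissues for 2771 of the genes higher in cortex (82.3%) and 981 of those higher in kidney (29.3%). With median-of-ratios factors it did so for 60.8% and 15.2%. A level nearer to one tissue can thus be a level below both. The shares of genes at 1 RPKM or more in liver are those of the deposited values only. Genes are not independent replicates, and these shares carry no test.

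The difference between the tissues was measured separately in A1 and A2, which share no library. The direction was the same for 13552 of the 14857 genes (91.2%). At least a 2-fold difference in the same direction was found in both animals for 2910 genes higher in kidney and 3026 genes higher in cortex. A 2-fold difference in A1 but not in A2 was found for 963 genes and in A2 but not in A1 for 825 genes, and 1716 of these 1788 had the same direction in the other animal. Across genes, Pearson's correlation of the differences was 0.969 and Spearman's 0.955, as a description of 2 animals that share the length and sequence of each gene. The median absolute distance between the animals was 0.24 on the log2 scale.

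**Figure D5:**
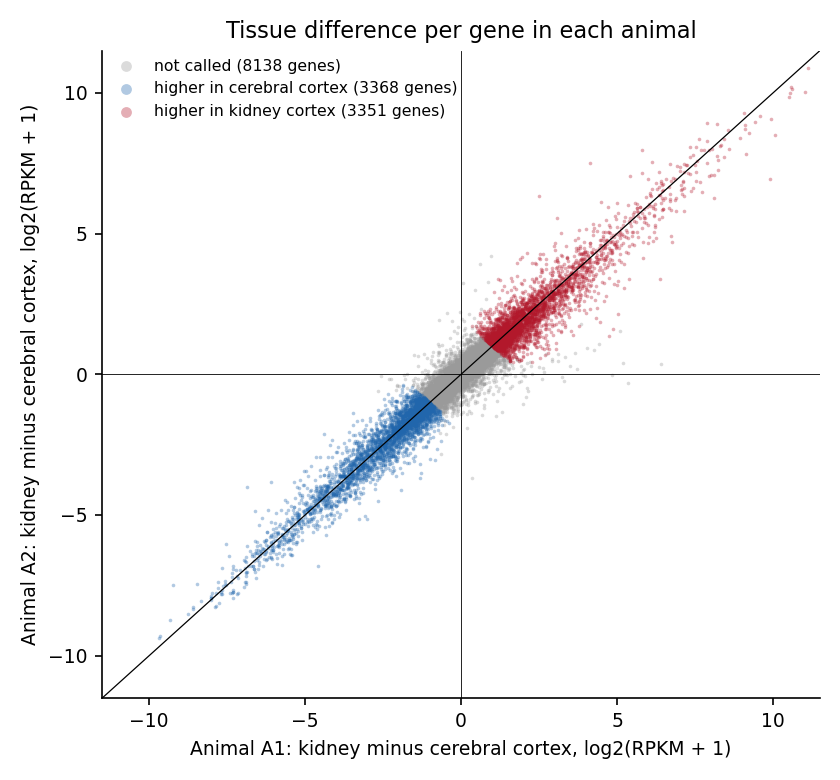
Difference of kidney minus cortex on the log2(RPKM + 1) scale in A1 (horizontal axis) and in A2 (vertical axis), 1 point per gene for 14857 genes. Genes called higher in kidney are red, genes called higher in cortex blue and all others grey, and the points follow the diagonal line of equal differences with a correlation of 0.969.

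The size of the difference varied between the animals for part of the genes. In limma's test of the interaction over the 12 libraries, 2564 genes (17.3%) had an adjusted p below 0.05, of which 1334 had the larger kidney-minus-cortex difference in A1 and 1230 in A2. Of the 2564, 2173 (84.8%) had the same direction in both animals, against 91.2% of all genes tested. A lower share is favoured by the choice of these genes, which were called for a distance between the animals. The distance between the animals was at least 2-fold for 630 of them and at least 4-fold for 83. Of the 83, 55 had the larger difference in A1 and 28 in A2. Among the 55, 22 genes were at least 8-fold higher in liver A2-1 than in every other liver library, against 5.28% of all genes tested, and among the 28 it was 4. These counts set no minimum level. At least 100 RPKM in liver A2-1 was reached by 6 of the 55, 0 of the 28 and 2.02% of all genes tested. Liver libraries did not enter this fit. The test compares these 2 animals with the spread of 3 samples each and says nothing about other animals. Without cortex A2-3 and kidney A2-3, 1303 genes passed, and without the 2 libraries of low depth 2068. The main fit ignores the pairing of same-numbered cortex and kidney samples, and with a replicate block for each such pair 3675 genes passed.

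Opposite directions with at least a 2-fold difference in each animal were found for 3 genes, which were named after their values had been seen. ENSMFAG00000040957 was at 3.82, 3.32 and 3.34 RPKM in the cortex of A1 and at 3.97, 4.52 and 3.59 RPKM in that of A2, so that the cortex values were close. In kidney it was at 10.7, 13.04 and 7.65 RPKM in A1 and at 1.05, 0.844 and 0.986 RPKM in A2, with no overlap between the animals. The difference of A2 against A1 in kidney minus cortex was -2.68 on the log2 scale (adjusted p = 1e-05 for the interaction in limma). ENSMFAG00000040986 had kidney levels of 19.2, 20.4 and 19.3 RPKM in A1 and 5.69, 9.51 and 4.66 RPKM in A2. Its cortex levels were 2.59, 2.39 and 10.5 RPKM in A1 and 20.6, 6.84 and 19.6 RPKM in A2, so that the cortex values of the animals overlap. In liver it was at 78.2 RPKM in A2-1 and at 2.38 to 17.9 RPKM in the other 5 libraries. For ENSMFAG00000000951 the kidney levels lay between 3.27 and 3.96 RPKM in all 6 libraries, while the cortex levels ran from 0.231 to 4.48 RPKM in A1 and from 5.16 to 18.3 RPKM in A2. The last 2 genes had interaction values of -3.03 (adjusted p = 0.00723) and -2.61 (adjusted p = 0.0251) in the same limma test. In cortex both genes had their highest values in A2-1 and A2-3, and within A1 both were highest in A1-3. Without cortex A2-3 and kidney A2-3, the value of ENSMFAG00000040986 was -2.62 (adjusted p = 0.0519 in limma) and that of ENSMFAG00000000951 was -2.32 (adjusted p = 0.108 in limma). ENSMFAG00000000951 also missed the threshold without cortex A1-1, A1-2, A2-1 or A2-3 alone, with values of -2.36 to -2.22 and adjusted p-values of 0.0545 to 0.0649 in limma.

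The spread among the samples of an animal lay in a similar range in both tissues. The median SD over 3 samples was 0.097 in A1 and 0.13 in A2 for cortex and 0.15 in A1 and 0.11 in A2 for kidney, on the log2 scale. The median absolute distance between the means of the 2 animals was 0.17 in cortex and 0.18 in kidney. At least a 2-fold distance between the animals was present for 286 genes in cortex (1.93%) and 407 genes in kidney (2.74%), without regard to a test. Both distances were small against the median absolute difference of 0.89 between the tissues.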

How the data were processed

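Total RNA was extracted from cerebral cortex and kidney cortex of 2 animals, with 3 samples per tissue and animal, and sequenced after library preparation with an Illumina kit, for which the labels and the study's methods give different names (a stranded mRNA kit in the methods). The authors checked reads with FastQC 0.11.2, used STAR for alignment to the genome of Ensembl version 92, and deposited RPKM values per gene on a linear scale. The study's methods name Cufflinks for FPKM values and featureCounts for read counts, and which tool gave the RPKM values is not stated in the sources used here. Columns were assigned by the sample descriptions, and 0 columns were left without a sample.

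Values of genes that reached 1 RPKM in 3 or more of the 12 libraries were taken to log2(RPKM + 1) and averaged per animal and tissue. The 4 means were fitted with limma 3.58.1 in R 4.3.3 (lmFit, eBayes with a trend, Benjamini-Hochberg adjustment, adjusted p below 0.05, absolute log2 difference of at least 1), and the interaction on all 12 libraries (adjusted p below 0.05). A difference on this scale understates the change of low genes. The fits and the depth estimate were tested on simulated data. Other values were computed in Python 3.11.15 with numpy 2.4.6. The read total of single libraries is unknown, so no counting intervals are given. Relative depth was taken from the most frequent ratio of low values in each pair of libraries, over genes above 0 in 2 to 6 libraries.

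Same-numbered cortex and kidney samples come from the same animal, and their deviations from the tissue means correlated at 0.137 to 0.309 in all 6 pairs, against a mean of 0.0348 for other numbers of the same animal. The genes named are the 2 with the largest difference in each direction among called genes without overlap. Lists of marker genes of brain and kidney cells that had been prepared were not used, as the identifiers carry no symbols. The comparison, its rule and the thresholds were chosen with earlier results of these data known. Alternatives covered the pseudocount, filter, scaling, unit of replication, block and set of samples. Those on the libraries A2-3, on liver A2-1 and on part of the summary counts were chosen after seeing the data. Whether the 3 samples of an animal were extracted in separate runs is not stated, so that the interaction test measures the spread between these samples only.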

Additional observations from a re-analysis of the deposited data

Results flagged for a closer look

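In each tissue, 9 measures of the libraries and the levels of the 4 genes named for the largest differences were screened for a library far from the other 5. This held in 4 of 26 groups of 6 libraries, where chance would give about 1.3 if the groups were independent. They are not, since several of the measures are related to each other, and all 4 flags fell on the libraries A2-2. No conclusion is drawn from the number. Cortex A2-2 stood apart in relative depth (0.380), in the number of genes at 0 (11748) and in its median correlation with the other cortex libraries (0.9756, across genes). Kidney A2-2 stood apart in the number of genes at 0 (12284). Both libraries have about the same depth, and the number of genes at 1 RPKM or more lay within the range of the other libraries in both, at 13164 and 12777.

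The difference between the tissues was not the same in A1 and A2 for 2564 genes by limma's interaction test, and for 1303 genes without cortex A2-3 and kidney A2-3. Among the genes with opposite directions in the animals, the difference of A2 against A1 was -2.61 for ENSMFAG00000000951, -2.68 for ENSMFAG00000040957 and -3.03 for ENSMFAG00000040986 on the log2 scale. Without the 2 libraries A2-3, ENSMFAG00000000951 and ENSMFAG00000040986 missed the threshold (adjusted p = 0.108 and 0.0519 in limma).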

How the results depend on the processing

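Under 24 alternatives, the number of genes that differ between the tissues lay between 6554 and 7668, apart from a stricter limit of 4-fold, which left 3236 genes (1448 higher in kidney, 1788 higher in cortex). Leaving out each library in turn gave 6698 to 6759 genes, 3331 to 3382 higher in kidney and 3352 to 3398 higher in cortex. Of the genes called, 96.7% were also called with quantile normalization and with median-of-ratios factors, and none of the genes shared with any alternative changed direction. With the animal as a replicate block on the 4 means, 6776 genes passed, and 6798 with a replicate block for each numbered sample of an animal over the 12 libraries. The interaction count was 3675 with the latter block, and the 4 named differences and 3 named interactions passed under it. It was 1303 without cortex A2-3 and kidney A2-3, an alternative chosen after seeing the data, and lay between 1763 and 2692 when single libraries were left out. The numbers of genes found in only 1 of the 2 tissues were 501 in cortex and 227 in kidney at limits of 5 and 0.5 RPKM. The 4 named differences passed under each of 23 alternatives. The interaction of ENSMFAG00000040957 passed in all 17 alternatives, while that of ENSMFAG00000000951 had adjusted p-values up to 0.108 (0.0545 to 0.0649 without cortex A1-1, A1-2, A2-1 or A2-3, at values of -2.36 to -2.22) and that of ENSMFAG00000040986 up to 0.0519, at a value of -2.62. The cause was not tested. Relative depth was lowest in the libraries A2-2, and its effect on low genes was not tested.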
